A study of Homo sapiens with 6 samples.

Results

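The 9 genes described here encode the machinery through which a cell senses interferon: the receptor chains IFNAR1, IFNAR2, IFNGR1 and IFNGR2, the Janus kinases JAK1, JAK2 and TYK2, and the transcription factors STAT2 and STAT3. They were found by gene symbol, and all 9 were present among the 32896 genes of the expression table. The study set out to find targets of SK4, a potassium channel opened by calcium that is also called KCa3.1 and is encoded by KCNN4. RNA-seq was done on BHT101, an established human cell line from an anaplastic thyroid carcinoma, 48 h after lipid transfection with an SK4 overexpression plasmid (n = 3 libraries) or with a control plasmid (n = 3 libraries). Cells of both groups were therefore transfected with plasmid DNA, no untransfected cells are among the 6 libraries, and the labels do not say whether the replicates of a group were separate cultures. Their spread, on which all p-values rest, may thus be technical.

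Type I interferons bind a receptor made of IFNAR1 and IFNAR2, which carry TYK2 and JAK1 on their cytoplasmic tails. Interferon gamma binds a receptor made of IFNGR1 and IFNGR2, which carry JAK1 and JAK2. The bound kinases phosphorylate the receptor and then STAT proteins, which enter the nucleus. STAT2 forms the ISGF3 complex with another STAT and with IRF9, and this complex binds the interferon-stimulated response element (ISRE) in promoters. STAT dimers, such as those driven by interferon gamma or by the interleukin 6 family acting on STAT3, bind the gamma-activated site (GAS).

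The DNA elements at the end of this pathway are shown here to make its output concrete. They come from RefSeq promoter windows on GRCh38.p14, which reach from 250 bases before a gene start to 50 bases after it. Capitals mark the ISRE core, spelled GAAA, any 2 bases and GAAA again and searched on both strands, in the 4 type I interferon targets with the highest levels in these cells, and the GAS core, spelled TTCNNNGAA and equal on both strands, in IRF1, an interferon gamma target. Where a gene held several matches before its start, the nearest is shown. A match of one core overlaps a match of the other in 22 of all windows and in 5 of the 44 windows of type I targets.
IFI6: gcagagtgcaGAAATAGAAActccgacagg
ISG15: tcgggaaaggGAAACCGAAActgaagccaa
BST2: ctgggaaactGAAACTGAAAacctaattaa
IFI27: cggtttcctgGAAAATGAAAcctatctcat
IRF1: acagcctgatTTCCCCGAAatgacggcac
These stretches lie at chr1:27672266-27672295 on the minus strand for IFI6, chr1:1013380-1013409 on the plus strand for ISG15, chr19:17405735-17405764 on the minus strand for BST2, chr14:94110631-94110660 on the plus strand for IFI27 and chr5:132490879-132490907 on the minus strand for IRF1. The first capital lies 93, 107, 124, 95 and 124 bases before the start in the order printed. Of the 31 type I interferon targets that matched the RefSeq table, 23 held an ISRE core (74.2%), and 28 of their 44 windows did, against 3.57% of all 35116 promoter windows. Of the 13 matched interferon gamma targets 7 held a GAS core, in 7 of 16 windows, against 7.66% of all windows. Among 12 matched STAT3 targets only 2 held a GAS core, in 2 of 17 windows (11.8%), and 0 held an ISRE core. The cores did not divide the lists: 8 of the 13 gamma targets held an ISRE core, in 8 of 16 windows, and 10 of the 31 type I targets held a GAS core, in 12 of 44 windows. Among the 9 interferon receptor, JAK and STAT genes, 8 matched the table (IFNAR2 did not), and 0 of their 15 windows held either core. A match is a match of letters, and its absence says only that these letters are not in these windows.

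The libraries held an estimated 29700000 to 38500000 fragments, and control replicate 3 was the shallowest. KCNN4 rose with the SK4 plasmid, to 184.14, 147.66 and 169.2 FPKM in the SK4 libraries, against 8.31, 8.26 and 8.52 FPKM in the control libraries (18.8-fold, 95% confidence interval 16.6 to 21.3; limma, adjusted p = 8.83e-07). FPKM values are fragment counts divided by transcript length and library depth, so levels of different genes can be compared roughly. Effects of base composition and of reads shared between overlapping genes remain in them, and the transcript lengths used are not given. The 7 markers of differentiated thyroid follicular cells summed to 0.46 to 0.53 FPKM in the SK4 and 0.41 to 0.56 FPKM in the control libraries, and thyroglobulin (TG) did not exceed 0.01 FPKM in any library. Of the follicular markers PAX8 was the highest, at 0.24 to 0.40 FPKM across the 6 libraries. The 6 epithelial markers summed to 595.4 to 648.3 FPKM in the SK4 and 576.8 to 626.2 FPKM in the control libraries. Of 7 leukocyte markers in the table, the pan-leukocyte gene PTPRC was at 0 to 0.01 FPKM in every library, and the list summed to 6.36 to 7.12 FPKM in the SK4 and 6.7 to 7.36 FPKM in the control libraries, carried by CD14, CD68 and ITGAM. The fibroblast collagen genes COL1A1 and COL1A2 did not exceed 0.08 FPKM, while all 6 fibroblast markers summed to 25.2 to 34.3 FPKM in the SK4 and 24.5 to 29.8 FPKM in the control libraries, carried by the proteoglycan gene LUM. The 5 endothelial markers summed to 0.28 to 0.44 FPKM in the SK4 and 0.33 to 0.43 FPKM in the control libraries.

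The receptor chains IFNGR2, IFNAR2 and IFNGR1 had the highest levels of the 9 genes, while the receptor chain IFNAR1 was next to last and JAK2 last. Over all 6 libraries IFNGR2 averaged 44.8 ± 2.1 FPKM, which placed it above 97.1% of the genes in the table. IFNAR2 followed with 13.8 ± 0.788 FPKM, IFNGR1 with 12.3 ± 1.66 FPKM and STAT3 with 10.5 ± 0.278 FPKM. TYK2 averaged 6.88 ± 0.39 FPKM, STAT2 6.45 ± 0.395 FPKM, JAK1 4.44 ± 0.427 FPKM and IFNAR1 3.86 ± 0.374 FPKM (SD, n = 6 libraries). JAK2 averaged 0.453 ± 0.137 FPKM and was above 59.5% of the genes in the table. The ranges over the libraries did not overlap between IFNGR2 and IFNAR2, STAT3 and TYK2, STAT2 and JAK1, or IFNAR1 and JAK2. They overlapped between the other neighbours in this order, although IFNAR2 was above IFNGR1, TYK2 above STAT2 and JAK1 above IFNAR1 in 6 of 6 libraries. IFNGR1 was above STAT3 in 5 of 6 libraries, with control replicate 3 as the exception.

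**Figure D1:**
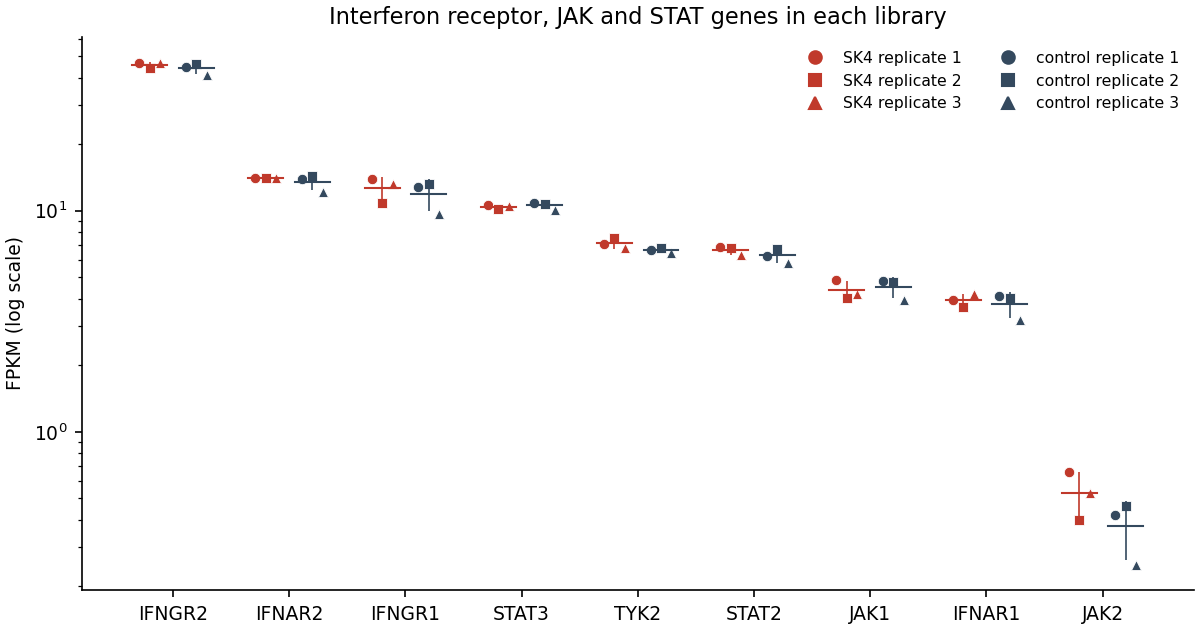
FPKM of each gene on a log axis, with the 3 SK4 libraries on the left and the 3 control libraries on the right of each gene; horizontal lines are group means and vertical lines SD (n = 3). The genes span from 44.8 FPKM (IFNGR2) to 0.453 FPKM (JAK2) on average, and the triangle of control replicate 3 is the lowest point of every gene.

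None of the 9 genes differed between SK4 and control libraries beyond the spread of the replicates. The test took in the 11139 genes that reached 1 FPKM in 3 or more libraries, and 8 of the 9 passed this filter, with JAK2 as the exception. Of the 8 tested genes 0 were called at an adjusted p below 0.05 and 0 had an unadjusted p below 0.05 (limma on log2(FPKM + 0.5), Benjamini-Hochberg adjustment over all tested genes). Among all genes tested, 0.00898% were called, which is KCNN4 alone, and 1.65% had an unadjusted p below 0.05. The SK4 and control values overlapped for all 9 genes, where 3.53% of all tested genes had every SK4 value above every control value and 1.81% had every SK4 value below. The log2 fold change was positive for 6 and negative for 2 of the 8 genes, beside 57.9% positive over all tested genes. Without control replicate 3 it was positive for 3 of the 8, beside 39.0% of all tested genes. With SK4 replicate 2 left out as well it was positive for 4 of the 8, beside 45.1%. For all 8 genes, as for 96.8% of the tested genes, the 95% confidence interval stayed within a 1.5-fold change up or down.

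The chains of the type I receptor lie together on the plus strand of chromosome 21, IFNAR2 at 33229901 to 33265675 and IFNAR1 at 33324477 to 33359862 (GENCODE release 29, GRCh38). IFNAR1, the chain that carries TYK2, held 3.95, 3.65 and 4.18 FPKM in SK4 libraries, against 4.13, 4.05 and 3.2 FPKM in control libraries. Control replicates 1 and 2 lay within the range of the SK4 libraries, and control replicate 3 lay below it. Its log2 fold change was 0.050 (SE 0.10, fold 95% confidence interval 0.876 to 1.22; limma, adjusted p = 0.99997). IFNAR2, the chain that carries JAK1 and binds interferon with the higher affinity, held 14.01, 14.08 and 14.03 FPKM in SK4 libraries, against 13.97, 14.33 and 12.18 FPKM in control libraries. The SK4 values were nearly identical and fell between control replicates 1 and 2. The log2 fold change of IFNAR2 was 0.059 (SE 0.065, fold 95% confidence interval 0.936 to 1.16; limma, adjusted p = 0.99997). Without control replicate 3 the direction turned for both chains, to a log2 fold change of -0.054 for IFNAR1 and -0.011 for IFNAR2.

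The level of IFNAR2 depends on how reads shared with an overlapping gene were assigned. A read-through gene that joins IFNAR2 to its neighbour IL10RB, listed as AP000295.9, starts at the same base as IFNAR2 and runs on the same strand to 33297160. It held 6.41, 6.43 and 6.34 FPKM in SK4 libraries, against 6.22, 6.48 and 6.62 FPKM in control libraries. IL10RB, a chain shared by the receptors for interleukin 10 and type III interferon, was listed at 0.05 to 0.08 FPKM in both groups. The IRF9 locus showed the same layout. IRF9 was listed at 0.47, 0.32 and 0.36 FPKM in SK4 libraries, against 0.24, 0.32 and 0.39 FPKM in control libraries, and a read-through gene that covers it on the same strand held 9.15 to 9.53 FPKM in SK4 and 8.63 to 9.38 FPKM in control libraries. The sources used here do not say how the authors split such reads, so the levels of IFNAR2, IL10RB and IRF9 are uncertain.

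The chains of the interferon gamma receptor differed in level and in how much they varied. IFNGR1, the ligand-binding chain on chromosome 6 (137197484 to 137219449, minus strand), held 13.87, 10.8 and 13.17 FPKM in SK4 libraries, against 12.81, 13.23 and 9.62 FPKM in control libraries. A low library stood out in each group, SK4 replicate 2 and control replicate 3, and the other 4 values lay between 12.81 and 13.87 FPKM. IFNGR1 had a log2 fold change of 0.088 with the widest interval of the 8 tested genes (SE 0.14, fold 95% confidence interval 0.851 to 1.33; limma, adjusted p = 0.99997), and it was -0.0515 without control replicate 3 and 0.19 without SK4 replicate 2. IFNGR2, the accessory chain that brings in JAK2, lies on chromosome 21 at 33402896 to 33479348 (plus strand). It held 46.3, 44.0 and 46.62 FPKM in SK4 libraries, against 44.86, 46.17 and 41.05 FPKM in control libraries. The same libraries were lowest in each group, but by smaller proportions than for IFNGR1. The log2 fold change of IFNGR2 was 0.053 (SE 0.052, fold 95% confidence interval 0.953 to 1.13; limma, adjusted p = 0.99997). It was positive with every library left out in turn, from 0.0036 without control replicate 3 to 0.087 without control replicate 2. TMEM50B overlaps IFNGR2 on the opposite strand and held 3.69 to 4.34 FPKM in SK4 and 3.59 to 4.12 FPKM in control libraries. The library kit marks strand, but nothing states whether the counting used it.

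Among the Janus kinases, TYK2 had the highest level of the 3 genes and the smallest unadjusted p of the 8 tested genes. TYK2, which binds IFNAR1, lies on chromosome 19 (10350529 to 10380676, minus strand) and held 7.09, 7.56 and 6.75 FPKM in SK4 libraries, against 6.64, 6.78 and 6.47 FPKM in control libraries. SK4 replicate 3 fell just below control replicate 2, so the groups overlapped by 1 value. TYK2 had a log2 fold change of 0.097 (SE 0.059, fold 95% confidence interval 0.972 to 1.18; limma, unadjusted p = 0.142, adjusted p = 0.99997), and it stayed positive with every library left out in turn (0.057 to 0.13). JAK1, the kinase shared by type I and type II receptors, lies on chromosome 1 (64833229 to 64966504, minus strand). It held 4.86, 4.04 and 4.2 FPKM in SK4 libraries, against 4.83, 4.78 and 3.94 FPKM in control libraries. Each group spanned nearly the same range. The log2 fold change of JAK1 was -0.043 (SE 0.099, fold 95% confidence interval 0.826 to 1.14; limma, adjusted p = 0.99997), with values from -0.13 to 0.0057 when each library was left out in turn, and the sign turned without SK4 replicate 2 (0.0057) and without control replicate 1 (0.0037).

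JAK2, the kinase that IFNGR2 carries, was near the floor of the measurement. Its locus on chromosome 9 spans 4984390 to 5128183 on the plus strand. The gene held 0.66, 0.4 and 0.53 FPKM in SK4 libraries, against 0.42, 0.46 and 0.25 FPKM in control libraries. SK4 replicate 2 lay below control replicates 1 and 2, and the ranges shared values (exact permutation p = 0.3, two-sided, n = 3 each). Taking the longest GENCODE transcript as the length, these levels correspond to about 39.2 to 127 fragments per library, for which counting error alone gives a coefficient of variation of 8.86% to 16%. The observed coefficient of variation was 24.5% among SK4 and 29.6% among control libraries. In a fit of all 32896 genes with no filter, the log2 fold change of JAK2 was 0.23 (SE 0.14, 95% confidence interval -0.11 to 0.57; limma, unadjusted p = 0.147, adjusted p = 0.973). The 0.5 added to FPKM in this fit is larger than every control value of JAK2, so the fold change is understated. The other 8 genes rested on about 568 fragments or more in every library. JAK3, a kinase best known from lymphocytes, was above JAK1 in every library, with 5.78, 5.28 and 5.24 FPKM in SK4 libraries, against 5.53, 5.46 and 5.55 FPKM in control libraries. JAK3 belongs to a list of 7 other JAK, STAT and ISGF3 genes, of which 5 were tested and 0 called, with 4 positive and 1 negative log2 fold changes and 0 unadjusted p below 0.05 (limma).

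Neither STAT gene differed between the groups beyond the replicate spread. STAT2, a STAT of the ISGF3 complex, lies on chromosome 12 (56341597 to 56360155, minus strand) and held 6.82, 6.78 and 6.28 FPKM in SK4 libraries, against 6.26, 6.74 and 5.83 FPKM in control libraries. Control replicate 2 lay within the SK4 values. STAT2 had a log2 fold change of 0.074 (SE 0.069, fold 95% confidence interval 0.942 to 1.18; limma, adjusted p = 0.99997), and it remained positive with every library left out in turn (0.026 to 0.12). STAT3, the STAT of interleukin 6 signalling, lies on chromosome 17 (42313324 to 42388568, minus strand). It held 10.56, 10.23 and 10.51 FPKM in SK4 libraries, against 10.85, 10.71 and 10.12 FPKM in control libraries. The SK4 values all lay between the lowest and the second highest control values, and STAT3 had the narrowest interval of the 8 tested genes. Its log2 fold change was -0.016 (SE 0.049, fold 95% confidence interval 0.913 to 1.07; limma, adjusted p = 0.99997). With each library left out in turn it ran from -0.045 to 0.0028, and the sign turned without control replicate 1.

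**Figure D2:**
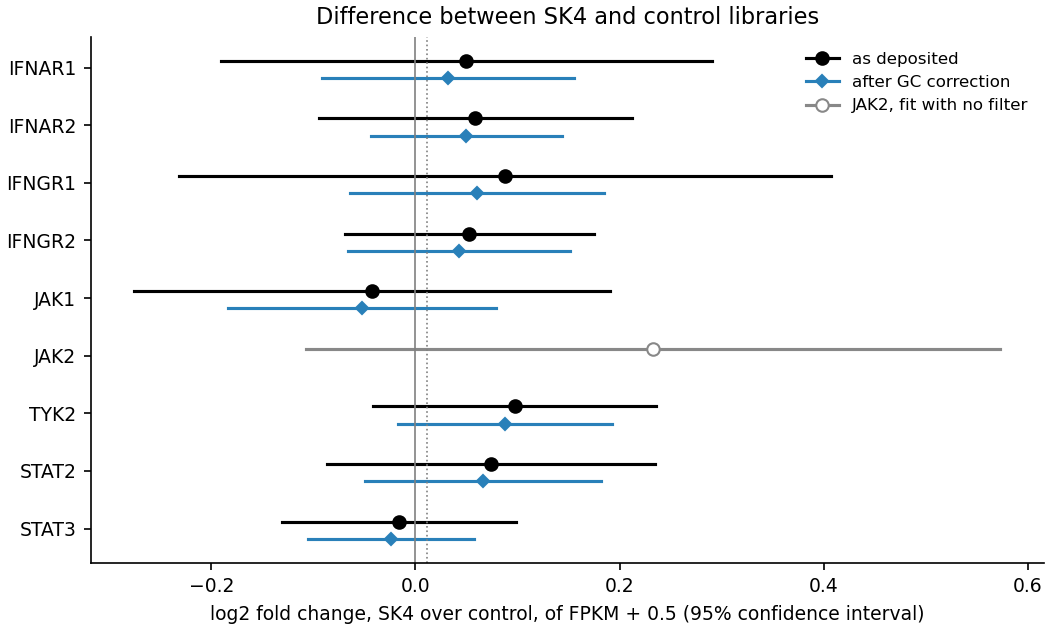
Log2 fold change of SK4 over control with its 95% confidence interval for each gene, from the deposited values (black) and after a correction for GC content (blue); JAK2 (grey, open) comes from a fit with no filter on low values. Every interval includes 0, the dotted line is the median of all tested genes (0.011), and the blue intervals are narrower than the black ones.

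All 9 genes had their lowest value in control replicate 3. The treatment label of that library names another line, while its cell line label reads BHT101, and a bearing on its values was not tested. Of the tested genes, 46.4% were lowest in that library, and 8.56% to 12.5% in each of the others. SK4 replicate 2 stood apart in a similar way within its group. Its difference from the mean of SK4 replicates 1 and 3, on the log2(FPKM + 0.5) scale, was most negative for IFNGR1 (-0.31), JAK2 (-0.28), JAK1 (-0.15) and IFNAR1 (-0.14) and was positive for IFNAR2 (0.00595), STAT2 (0.047) and TYK2 (0.12), with a median over all tested genes of -0.036. In control replicate 3 the difference from the mean of control replicates 1 and 2 was -0.42 for IFNGR1, -0.33 for JAK2, -0.31 for IFNAR1, -0.26 for JAK1 and -0.21 for IFNAR2. It was -0.15 for IFNGR2, -0.14 for STAT2, -0.087 for STAT3 and -0.049 for TYK2, and the median over all tested genes was -0.097. JAK2, at 0.25 to 0.66 FPKM, is about as low as the added 0.5, so this scale understates its shifts in both libraries and its place in the order.

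These differences went with the base composition of the transcripts. JAK2, IFNGR1 and IFNAR1 have the lowest GC content of the 9 genes, 39.2%, 40.2% and 42.3% of their longest GENCODE transcript, and TYK2 has the highest, 61.3%. Across the 9 genes the correlation of GC content with the shift of SK4 replicate 2 was r = 0.846 (rho = 0.817), and with the shift of control replicate 3 it was r = 0.908 (rho = 0.933). Across 11065 tested genes with a GC value the correlations were r = 0.552 (rho = 0.633) for SK4 replicate 2 and r = 0.511 (rho = 0.627) for control replicate 3. Genes of 1 library share its depth and preparation and are not independent, so these correlations are descriptions. Tested genes under 45% GC had a median shift of -0.18 in SK4 replicate 2 and -0.27 in control replicate 3, and genes at 55% GC and over had 0.047 and 0.015. A GC correction was chosen after seeing these values. With it the standard error of the log2 fold change was 0.054 in place of 0.14 for IFNGR1. The standard error was 0.054 in place of 0.10 for IFNAR1 and 0.057 in place of 0.099 for JAK1. For IFNGR2 it was 0.048 in place of 0.052, and for STAT3 0.036 in place of 0.049. The correction was fitted to these same libraries, so smaller errors do not test it, and they leave out its own uncertainty. After correction IFNAR2, IFNGR1, IFNGR2, JAK2, TYK2 and STAT2 were still lowest in control replicate 3. IFNAR1, JAK1 and STAT3 were then lowest in an SK4 library. On a log2 scale with no added constant, the corrected shift of control replicate 3 was -0.475 for JAK2. It was -0.12 for IFNGR2, -0.11 for IFNGR1, -0.068 for TYK2 and 0.0054 for STAT3. The corrected log2 fold changes ran from -0.052 for JAK1 to 0.088 for TYK2, and 0 of the 8 genes were called (limma, adjusted p = 0.99916 for each; smallest unadjusted p = 0.09, for TYK2).

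**Figure D3:**
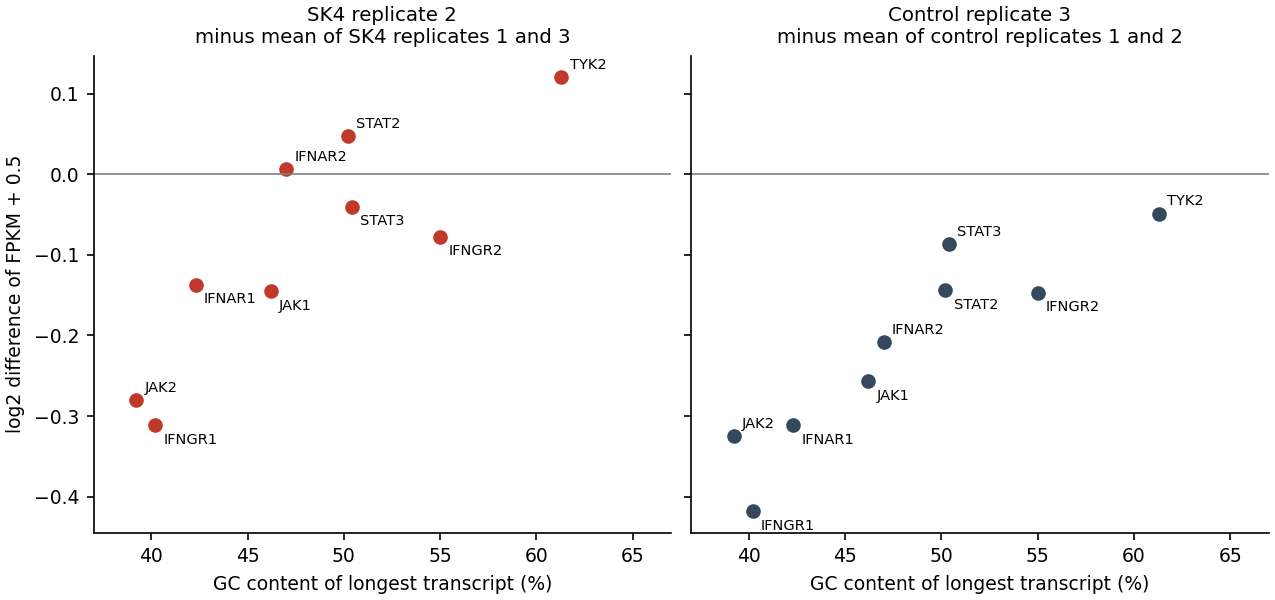
Log2 difference of SK4 replicate 2 from the other SK4 libraries (left) and of control replicate 3 from the other control libraries (right), against the GC content of the longest transcript, for the 9 genes. In both panels the AT-rich genes JAK2 and IFNGR1 lie lowest (-0.28 and -0.31 in SK4 replicate 2, -0.33 and -0.42 in control replicate 3) and TYK2, at 61.3% GC, lies highest (0.12 and -0.049).

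The balance between partner chains was compared as a ratio of FPKM values within each library, which does not depend on the scaling of the library. IFNAR2 exceeded IFNAR1 by ratios of 3.55, 3.86 and 3.36 in SK4 libraries, against 3.38, 3.54 and 3.81 in control libraries (exact two-sided permutation test p = 0.9, n = 3 each). IFNGR2 exceeded IFNGR1 by ratios of 3.34, 4.07 and 3.54 in SK4 libraries, against 3.50, 3.49 and 4.27 in control libraries (exact permutation p = 0.7, n = 3 each). SK4 replicate 2 and control replicate 3 were the high values of both pairs. After the GC correction the IFNGR2 to IFNGR1 ratio was 3.62, 3.67 and 3.70 in SK4 libraries, against 3.71, 3.72 and 3.68 in control libraries, so the spread between the libraries was far smaller and the groups still overlapped. STAT3 exceeded STAT2 by ratios of 1.55, 1.51 and 1.67 in SK4 libraries, against 1.73, 1.59 and 1.74 in control libraries, with overlapping groups (exact permutation p = 0.2, n = 3 each).

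The ratios between the kinases were higher in SK4 libraries on average. TYK2 exceeded JAK1 by ratios of 1.46, 1.87 and 1.61 in SK4 libraries, against 1.38, 1.42 and 1.64 in control libraries, which overlapped (exact permutation p = 0.3, n = 3 each). After the GC correction the ratios were 1.52, 1.75 and 1.65 in SK4 libraries, against 1.43, 1.50 and 1.49 in control libraries, and no longer overlapped (exact permutation p = 0.1, n = 3 each). The closest values were 1.516 in SK4 replicate 1 and 1.501 in control replicate 2. Counting error alone gives a coefficient of variation of 2.88% to 3.46% for TYK2 and 3.28% to 4.11% for JAK1, above that gap. The JAK2 to JAK1 ratio was 0.136, 0.0990 and 0.126 in SK4 libraries, against 0.0870, 0.0962 and 0.0635 in control libraries, so that every SK4 value lay above every control value, by a margin of 0.0990 to 0.0962 at the closest. The mean log2 difference was 0.56, and 0.53 after the GC correction, with an exact permutation p of 0.1 (two-sided), the smallest that 3 against 3 libraries allow. These ratios were taken without an added constant, unlike the fitted fold changes. With 0.5 added to each FPKM value the log2 difference was 0.28 (exact permutation p = 0.1). At 39.2 to 127 fragments for JAK2, counting error of a single library is larger than that margin. None of the 5 ratios compared can pass a threshold of 0.05 in this design.

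**Figure D4:**
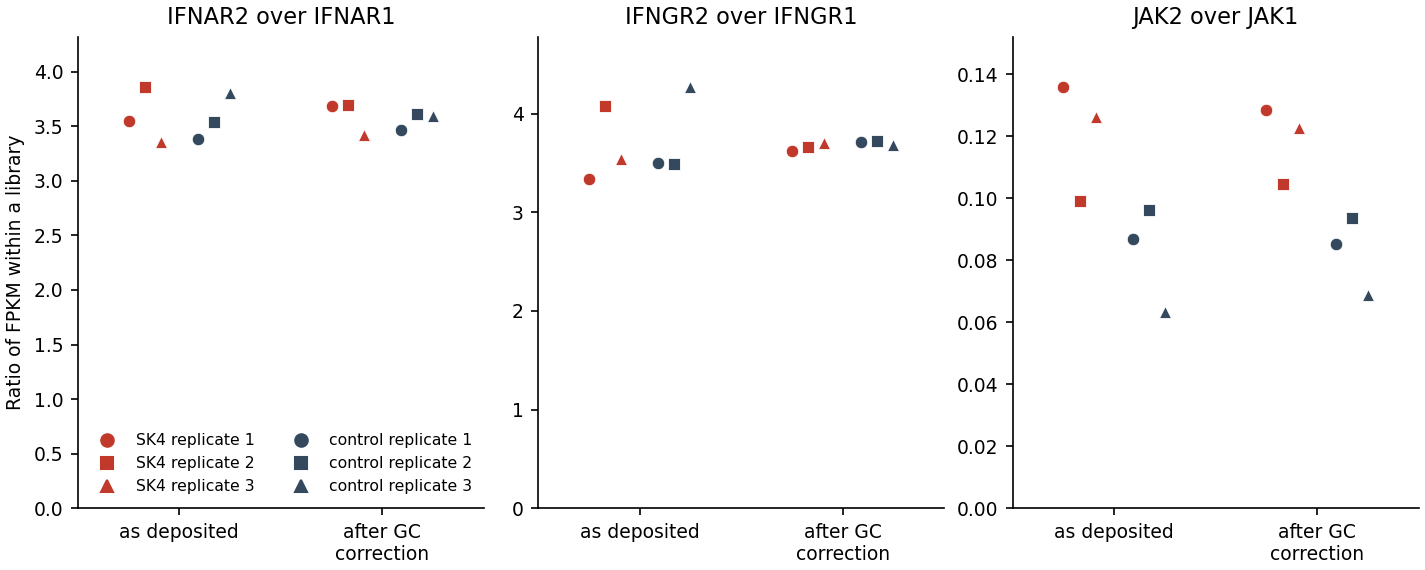
Ratios of FPKM within each library for the chains of the type I receptor, the chains of the interferon gamma receptor, and JAK2 over JAK1, as deposited and after GC correction; SK4 libraries are left of control libraries and each point is a library. The IFNGR2 to IFNGR1 ratio spans 3.34 to 4.27 as deposited and 3.62 to 3.72 after correction, while the JAK2 to JAK1 ratio keeps its SK4 values (0.105 to 0.129 after correction) above its control values (0.0687 to 0.0936).

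Other genes followed nearly the same course over the 6 libraries as these 9. For each gene the closest kept gene by Pearson correlation of log2(FPKM + 0.5) is a description over 6 libraries. The search ran over tested genes and skipped symbols that look like clone names. Its pattern also dropped symbols that start with CTA, CTB, CTC or CTD, so a closer gene may go unnamed. HBEGF was closest to IFNAR1 (r = 0.998), ZNF142 to IFNAR2 (r = 0.996), MTPAP to IFNGR1 (r = 0.999) and CDKN2AIP to IFNGR2 (r = 0.997). VHL was closest to JAK1 (r = 0.998), SCAMP1 to JAK2 (r = 0.993), INPPL1 to TYK2 (r = 0.997), MREG to STAT2 (r = 0.985) and CTTN to STAT3 (r = 0.998). The number of tested genes with r above 0.9 was 2209 for IFNGR1 and 1333 for STAT3, and 95 for TYK2 and 130 for STAT2. Among the 9 genes themselves, IFNGR1 and IFNGR2 had r = 0.952, and IFNAR1 had r = 0.933 with IFNGR2 and 0.925 with IFNGR1. TYK2 had r = 0.062 with IFNGR1, -0.071 with JAK1 and -0.20 with STAT3, but 0.52 with IFNAR2 and at most 0.782, with STAT2. STAT2 and STAT3 had r = 0.313. All these correlations include SK4 replicate 2 and control replicate 3, whose shifts went with GC content, and TYK2 is the most GC-rich of the 9 genes. A cause of the low TYK2 values was not tested.

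The ligands and the other receptors of the pathway were mostly low in these cells, and 0 of their tested genes were called (limma). Of 9 interferon genes in the table, only IFNL1, a type III interferon, passed the filter, with 2.01, 1.72 and 2.52 FPKM in SK4 libraries, against 2.05, 1.88 and 2.22 FPKM in control libraries. IFNB1, a type I interferon, was at 0.42, 0.32 and 0.19 FPKM in SK4 libraries, against 0.17, 0.4 and 0.16 FPKM in control libraries, and IFNG did not exceed 0.07 FPKM. IFNLR1, the specific chain of the type III receptor, was at 0.23 to 0.24 FPKM in every library. Of 29 other cytokine receptor genes that signal through Janus kinases, 24 were in the table and 10 were tested, 8 with a positive and 2 with a negative log2 fold change and 1 with an unadjusted p below 0.05 (IL27RA). IL27RA, a receptor chain for interleukin 27, held 8.05, 9.68 and 8.78 FPKM in SK4 libraries, against 7.54, 7.93 and 7.84 FPKM in control libraries, without overlap (limma, unadjusted p = 0.0466, adjusted p = 0.99997). IL2RG, the chain to which JAK3 binds, averaged 28.6 ± 1.17 FPKM in SK4 and 27.3 ± 1.22 FPKM in control libraries. IL13RA1, a receptor chain for interleukin 13, averaged 19.7 ± 1.03 and 20.7 ± 2.65 FPKM, and IL15RA, the alpha chain of the interleukin 15 receptor, 14.2 ± 0.685 and 13.4 ± 0.456 FPKM in SK4 and control libraries. The interleukin 6 family receptors that act on STAT3 included OSMR at 12.9 ± 0.996 FPKM in SK4 and 12.9 ± 1.33 FPKM in control libraries, and the shared chain IL6ST at 4.92 ± 0.835 and 4.27 ± 0.783 FPKM in SK4 and control libraries (SD, n = 3 each).

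Inhibitors of the pathway were not called either (limma). Of 18 such genes 15 were tested, 10 with a positive and 5 with a negative log2 fold change, 0 with an unadjusted p below 0.05, and a median of 0.045 beside 0.011 over all tested genes. SOCS3, an inhibitor that STAT3 induces, averaged 30.1 ± 0.391 FPKM in SK4 and 30.4 ± 0.626 FPKM in control libraries. USP18, which displaces JAK1 from IFNAR2, averaged 16.8 ± 0.526 FPKM in SK4 and 15.7 ± 0.767 FPKM in control libraries. SH2B3, an adaptor that dampens JAK2 signalling, averaged 14.4 ± 0.645 and 13.9 ± 1.26 FPKM, and PTPN1, a phosphatase of JAK2 and TYK2, 13.8 ± 0.48 and 13.7 ± 1.16 FPKM in SK4 and control libraries (SD, n = 3 each). Without control replicate 3 the median of the list was -0.0075.

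Targets of the pathway were also without a called gene. Of 38 type I interferon targets, all tested, 37 had a positive log2 fold change (median 0.12), 8 had an unadjusted p below 0.05, and 30 were lowest in control replicate 3. Over all tested genes 57.9% were positive (median 0.011), 1.65% had an unadjusted p below 0.05 and 46.4% were lowest in control replicate 3. Without that library 26 targets were positive (median 0.046), beside 39.0% of all tested genes (median -0.021). When SK4 replicate 2 was left out too, 34 were positive (median 0.092), beside 45.1% (median -0.0076). ISG15, a ubiquitin-like modifier, held 874.24, 900.14 and 866.04 FPKM in SK4 libraries, against 825.5, 811.54 and 812.64 FPKM in control libraries. Its groups did not overlap, yet the fold of 1.08 was not called (95% confidence interval 1.03 to 1.13; limma, unadjusted p = 0.0048, adjusted p = 0.99997). ISG15 was among 6 of the 38 targets with every SK4 value above every control value, beside 3.53% of all tested genes. For 0 of the 38 every SK4 value lay below, beside 1.81%. The other 3 of the highest targets overlapped between the groups: IFI6 averaged 1269 ± 18.2 FPKM in SK4 and 1236 ± 38.6 FPKM in control libraries, BST2 638.3 ± 5.89 and 639.7 ± 9.09 FPKM, and IFI27 294.9 ± 4.5 and 291.9 ± 8.2 FPKM (SD, n = 3 each). Of 18 interferon gamma targets 14 were tested, and all 14 had a positive log2 fold change (median 0.084), with 2 unadjusted p below 0.05 and 12 lowest in control replicate 3, to be read beside the same shares of all tested genes. Without control replicate 3, 11 of the 14 were positive (median 0.051), and without SK4 replicate 2 as well 13 were (median 0.067). Every SK4 value lay above every control value for 4 of the 14 and below for 0, beside 3.53% and 1.81% of all tested genes. The highest of the 14, the adhesion receptor ICAM1, averaged 110.7 ± 4.75 FPKM in SK4 and 104.8 ± 0.801 FPKM in control libraries. The peptide transporter TAP1 averaged 42.4 ± 0.704 and 39.9 ± 0.45 FPKM (SD, n = 3 each). Both were among the 4 without overlap (limma, unadjusted p = 0.0774 for ICAM1 and 0.0307 for TAP1, adjusted p = 0.99997 for each). Of 19 STAT3 targets, all tested, 12 were positive and 7 negative (median 0.016), close to the 57.9% positive over all tested genes. In this list 2 had an unadjusted p below 0.05, beside 1.65% of all tested genes, and 10 were lowest in control replicate 3. The transcription factor CEBPD averaged 181.6 ± 3.64 FPKM in SK4 and 175.3 ± 9.51 FPKM in control libraries, and JUNB 125.7 ± 2.52 and 119.1 ± 2.08 FPKM (SD, n = 3 each). JUNB was the 1 STAT3 target with every SK4 value above every control value (limma, unadjusted p = 0.0426, adjusted p = 0.99997). The 4 receptor genes had a median of 0.056, and of -0.031 without control replicate 3. Members of a list are not independent, and no difference between the lists was tested.

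**Figure D5:**
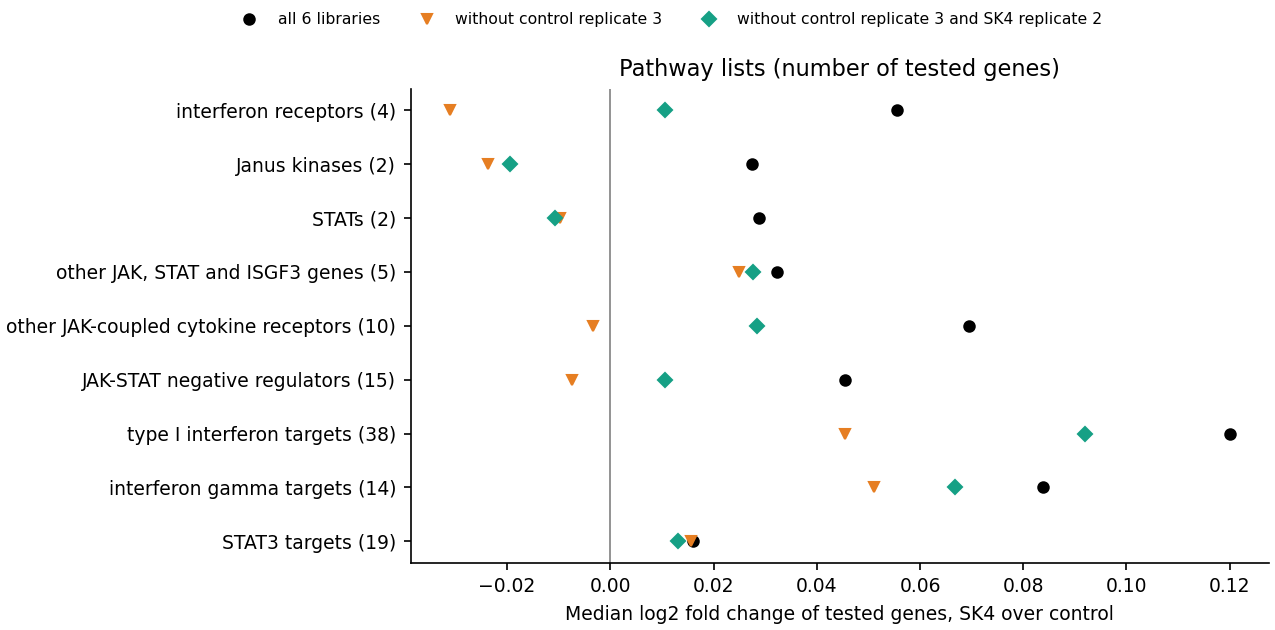
Median log2 fold change of SK4 over control for the tested genes of each list, from all 6 libraries, without control replicate 3, and with SK4 replicate 2 left out too; the number of tested genes is in parentheses. The interferon receptors, Janus kinases and STATs change sign when control replicate 3 is left out (-0.031, -0.024 and -0.0096). The other cytokine receptors and the inhibitors do so too. With SK4 replicate 2 left out as well, the receptors (0.011), other cytokine receptors (0.028) and inhibitors (0.011) are above 0 again. The type I interferon targets stay above 0 (0.12, 0.046 and 0.092). So do the interferon gamma targets (0.084, 0.051 and 0.067) and the STAT3 targets (0.016, 0.016 and 0.013). The other JAK, STAT and ISGF3 genes also stay above 0 (0.032, 0.025 and 0.028).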

How the data were processed

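The deposited table holds FPKM values (fragments scaled to transcript length and library depth), which the authors rounded to 2 decimals, with 1 column per library. Per the labels' protocols, polyadenylated RNA was sequenced as stranded 150 nt paired-end reads. Per the submitters' processing notes, HISAT2 and GRCh38 were used. Version, counting tool and annotation: not given in the sources used here. Samples were grouped by title. The treatment label of control replicate 3 names another line, its cell line label BHT101.

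Genes reaching 1 FPKM in 3 or more libraries were compared as log2(FPKM + 0.5), which understates changes of low genes, with limma 3.58.1 in R 4.3.3 (trended, robust prior variance), checked on simulated data. Ratios were tested by exact permutation. Depth was estimated from 561 single-exon genes under 160 nt, whose low values are multiples of 1 fragment; this covers counting error only. GC content and coordinates came from GENCODE release 29 (31733 identifiers matched). The GC correction subtracted a lowess curve (span 0.3) per library.

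The genes and lists were chosen with earlier results of these data known. Named were all 9 genes, KCNN4, well-expressed list members and the closest gene to each; some other genes are not reported here. IL27RA, IRF1, IFNB1, IFNG, IFNLR1, IL10RB, IRF9, IL6ST and the overlapping genes were named after their values were seen.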

Additional observations from a re-analysis of the deposited data

How the results depend on the processing

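The alternatives covered a block for the replicate number, left-out libraries, GC correction, pseudocount, filter on low values, scaling, library weights and prior variance; the GC correction was chosen after seeing the data. None of them called any of the 9 genes. The number of called genes was 1 under each except without both control replicate 3 and SK4 replicate 2, where it was 4. There, IFNAR1 and IFNAR2 had log2 fold changes of -0.0083 and -0.013, and the log2 IFNAR2 to IFNAR1 ratio differed by -0.0039. Leaving out each library in turn gave log2 fold changes of -0.054 to 0.11 for IFNAR1, -0.011 to 0.10 for IFNAR2, -0.0515 to 0.19 for IFNGR1, -0.13 to 0.0057 for JAK1 and -0.045 to 0.0028 for STAT3. The log2 ratio differed by -0.050 to 0.051 for IFNAR2 to IFNAR1 and by -0.12 to 0.057 for IFNGR2 to IFNGR1. The cause was not tested. IFNGR2, TYK2, STAT2 and the JAK2 to JAK1, TYK2 to JAK1 and STAT3 to STAT2 ratios kept their sign under every alternative run.

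With the replicate number as a block, 1 gene was called and 0 of the 8 tested genes. Whether equal replicate numbers mark paired libraries is not known. Deviations from the group mean correlated at 0.306 between both replicates 1, -0.41 between both replicates 2 and -0.154 between both replicates 3. Between SK4 replicate 2 and control replicate 3 the value was 0.528. Such correlations carry the shifts of these libraries and cannot tell whether any libraries were paired. Depth limits JAK2 most, and JAK2 has a fitted value only with no filter.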
